A study of Mus musculus with 2 samples.

Results

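The transforming growth factor beta (TGF-beta) ligand genes Tgfb1, Tgfb2 and Tgfb3, the receptor genes Tgfbr1, Tgfbr2 and Tgfbr3, and Tgfbi, a gene named for its induction by TGF-beta, were followed across the stromal cells of the mouse gut. These 7 genes were taken as a list, and all 7 were among the 16098 genes listed for both libraries. Stromal cells negative for CD45 and EpCAM were sorted from healthy, untreated mouse colon and small intestine and profiled by droplet single-cell RNA sequencing from the 3' end of each transcript, with 1 library per tissue. The colon was digested for 60 min and the small intestine for 45 min. Strain, sex, age and number of animals are not given in the sources used here. Levels are given in CPM, the field's depth-scaled count: the UMIs of a gene (unique molecular identifiers, each marking 1 captured RNA molecule) scaled by all UMIs of the cell type. Intervals are 95% intervals for counting error only. With 1 library per tissue no difference between the tissues has a replicate check, so none was tested. Tissue cannot be told apart from animal, mix of sexes, digestion time or library.

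TGF-beta ligands are secreted bound to their own propeptide and to latent TGF-beta binding proteins, which hold them in the extracellular matrix until integrins or proteases release them. Released ligand binds the type II receptor Tgfbr2, which recruits and phosphorylates the type I receptor Tgfbr1, and this complex activates Smad2 and Smad3. Tgfbr3, also called betaglycan, is a co-receptor that presents ligand, and TGF-beta2 in particular, to Tgfbr2. In the gut wall the pathway is known for matrix production by fibroblasts, smooth muscle differentiation and restraint of endothelial and immune cells.

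The cell type labels were the authors' own. The colon library held 6018 cells and 40684070 UMIs, and the small intestine library 9359 cells and 58134526 UMIs. A total of 21 cell barcodes occurred in both libraries. Compared were 6 types with at least 50 cells in each: CD81- fibroblasts (3631 colon and 2823 small intestinal cells), CD81+ trophocytes (875 and 1913), PDGFRa-high subepithelial myofibroblasts, SEMFs (1105 and 1109), smooth muscle cells, SMCs (125 and 468), lymphatic endothelial cells, LECs (217 and 2498), and blood endothelial cells, BECs (53 and 524). The colon BECs joined 3 endothelial labels, of which capillary cells made up 45. Defining markers matched the labels of LECs, SMCs and SEMFs. Of the 6 LEC markers, 6 were highest in LECs of the colon and 5 in those of the small intestine. For the 6 BEC markers the numbers were 6 and 4, for 5 trophocyte markers 4 and 4, and all 6 SMC and all 7 SEMF markers were highest under their own label in both. Fibroblast RNA was present under other labels too: the summed level of 5 fibroblast markers was 12226 CPM in small intestinal SMCs against 5257 CPM in colon SMCs. Only the colon library had pericyte labels. The 5 pericyte markers summed to 1241 CPM in small intestinal SEMFs, where 3 of them were highest, against 153.8 CPM in colon SEMFs. In small intestinal and colon SMCs the sums were 1273 and 619 CPM. In CD81- fibroblasts they were 823.7 and 63.0 CPM, with a small intestinal median of 1.89 CPM per marker. The part of pericyte RNA in the members' differences was not tested. Relative to fibroblasts, the levels of Dcn, Lum, Col1a1 and Col3a1 had a median of 9.91% in colon LECs, 23.5% in colon BECs, 2.61% in small intestinal LECs and 1.32% in small intestinal BECs. These medians serve below as the carry-over of fibroblast RNA. The colon library held 2700 cells with Xist and no Y-linked UMIs and 1751 with Y-linked and no Xist UMIs, and the small intestine table had no entry for Xist. Y-linked UMIs were seen in 6896 of the 9359 small intestinal cells and in 1905 of the 6018 colon cells. The mix of sexes may thus differ between the libraries.

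In GENCODE vM21 (GRCm38, the build mm10 of the submitters' notes), Tgfb1 lies on the plus strand of chromosome 7 (25687002 to 25705077), Tgfb2 on the minus strand of chromosome 1 (186622792 to 186705989) and Tgfb3 on the minus strand of chromosome 12 (86056745 to 86079041). The receptor genes are Tgfbr1 on chromosome 4 (plus strand, 47353222 to 47414931), Tgfbr2 on chromosome 9 (minus strand, 116084293 to 116175360) and Tgfbr3 on chromosome 5 (minus strand, 107106570 to 107289629). Tgfbi lies on the plus strand of chromosome 13 (56609523 to 56639562). Tgfb3 overlaps the protein-coding gene Ttll5 on the opposite strand, and whether the counting used strand is not given in the sources used here, so reads of this pair may not be separable. Tgfbr3 overlaps 3 other annotated genes on its own strand, Gm43422, Gm43423 and Gm42900, none of them labelled protein-coding. RefSeq promoter windows of GRCm38.p6 were matched for 5 of the 7 genes. The sequence before the start is shown for Tgfb1 and Tgfb2, which differed in opposite directions between the libraries in CD81- fibroblasts, and for Tgfbi, the member with the widest range between cell types in the colon. Capitals mark 4 short motifs found on either strand. The box bound by the Sp family was searched as GGGCGG. The box of the core promoter was searched as TATAAA. The E-box of helix-loop-helix proteins was searched as CACGTG, and the short Smad-binding element as CAGAC. A match describes the letters and not a bound site. The sequences read 5′ to 3′ on the strand of the gene:
Tgfb1, chr7:25686752-25687001, plus strand: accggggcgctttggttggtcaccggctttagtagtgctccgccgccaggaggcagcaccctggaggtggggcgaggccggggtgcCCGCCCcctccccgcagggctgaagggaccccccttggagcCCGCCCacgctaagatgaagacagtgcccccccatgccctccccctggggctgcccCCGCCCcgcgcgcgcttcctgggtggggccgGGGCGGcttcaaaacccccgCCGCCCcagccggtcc
Tgfb2, chr1:186705990-186706239, minus strand: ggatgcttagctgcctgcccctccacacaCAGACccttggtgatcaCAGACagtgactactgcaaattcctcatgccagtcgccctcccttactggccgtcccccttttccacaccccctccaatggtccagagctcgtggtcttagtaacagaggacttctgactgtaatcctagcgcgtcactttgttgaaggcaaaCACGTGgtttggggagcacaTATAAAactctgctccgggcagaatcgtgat
Tgfbi, chr13:56609336-56609522, plus strand: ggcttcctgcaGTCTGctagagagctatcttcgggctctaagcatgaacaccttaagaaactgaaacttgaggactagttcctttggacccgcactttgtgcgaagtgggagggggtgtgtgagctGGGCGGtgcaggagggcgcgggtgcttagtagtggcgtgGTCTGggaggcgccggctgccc

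The Tgfb1 window held 5 copies of GGGCGG and none of the other 3 motifs. The Tgfb2 window held the other pattern, 1 TATAAA beginning 31 bases before the start, 1 CACGTG, 2 CAGAC and no GGGCGG. Of 32851 windows of the same 250 bases, 32.7% held GGGCGG, 12.4% TATAAA, 6.02% CACGTG and 42.2% CAGAC. The Tgfbi window was cut to 187 bases where the GENCODE gene begins, and held 1 GGGCGG and 2 CAGAC. These motifs occurred in 22.2% and 34.2% of windows of that length. The guanine and cytosine content was 75.2% for Tgfb1, 53.6% for Tgfb2 and 59.4% for Tgfbi.

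Among the ligands, Tgfb1 was highest in endothelial cells in both libraries. In the colon its level was 143.6 CPM in LECs (interval 121.8 to 168.3) and 96.4 CPM in BECs (63.0 to 141.3), and these 2 types did not differ beyond counting error. The fibroblast types and SMCs were lower, with 35.6 CPM in SEMFs, 29.7 in trophocytes, 27.9 in CD81- fibroblasts and 16.8 in SMCs, and no neighbours in that order were separated. In the small intestine LECs stood at 150.4 CPM (143.3 to 157.8), above BECs at 77.1 CPM (65.9 to 89.6), and the remaining types lay between 8.98 CPM in trophocytes and 18.2 CPM in SEMFs. The log2 ratio of colon to small intestine was -0.07 in LECs (-0.32 to 0.17) and 0.32 in BECs (-0.33 to 0.92), but 1.72 in trophocytes (1.40 to 2.05), 0.97 in SEMFs (0.65 to 1.29) and 0.88 in CD81- fibroblasts (0.69 to 1.08). The endothelial values pool the colon subsets split by Xist and Y-linked UMIs. The log2 ratio of the Y-linked to the Xist subset was -0.74 in LECs (-1.42 to -0.11). In BECs it was -1.58 (-4.00 to 0.23), not separated beyond counting error. In LECs Tgfb1 was at 108.6 CPM in the Y-linked subset (ratio to small intestine -0.47, -1.08 to 0.08) and at 181.9 CPM in the Xist subset (0.27, -0.04 to 0.58). In BECs the ratios to small intestine were -0.55 on 3 UMIs (-2.84 to 1.02) and 1.03 on 16 UMIs (0.19 to 1.77). At least 1 Tgfb1 UMI was seen in 16.1% of colon and 6.33% of small intestinal trophocytes, or 4.81% and 1.53% with every cell thinned to 2000 UMIs. With all UMIs, the lymphatic gene Lyve1 had a UMI in 1.05% of colon fibroblasts (median 6707 UMIs per cell). In small intestinal fibroblasts the share was 2.29% (median 7018). Lyve1 is the more abundant gene in LECs, at 2994 CPM in those of the small intestine without a Tgfbi UMI. Its share is thus no like-for-like background for Tgfb1. Relative to LECs, Prox1, Lyve1, Mmrn1 and Ccl21a had a median of 0.145% in pooled small intestinal fibroblasts. At that share LEC carry-over would give 0.22 CPM of Tgfb1, against 13.4 CPM measured.

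Tgfb2 was spread more widely. In the colon LECs had 166.1 CPM (142.6 to 192.5), CD81- fibroblasts 126.2, trophocytes 124.2, SEMFs 63.5, BECs 63.0 and SMCs 22.0 CPM, and CD81- fibroblasts and trophocytes were not separable, nor were SEMFs and BECs. In the small intestine LECs had 350.8 CPM (339.9 to 362.0), CD81- fibroblasts 284.2, trophocytes 189.2, SMCs 87.0, BECs 70.7 and SEMFs 53.7 CPM, with every pair of neighbours separated. Without the 10% of cells richest in other lineages' markers, the small intestinal BEC level of Tgfb2 was 40.4 CPM and that of SEMFs 54.7 CPM, so the order of these 2 types turned. LECs were thus the highest type in both, and CD81- fibroblasts the second. Tgfb2 was lower in the colon in CD81- fibroblasts (log2 ratio -1.17, -1.23 to -1.11), in LECs (-1.08, -1.30 to -0.86) and in SMCs (-1.98, -2.78 to -1.27). The SMC value rests on 17 colon UMIs, and fibroblast markers were higher in small intestinal SMCs, as given above; their part in this difference was not tested. In SEMFs the ratio was 0.24 (0.04 to 0.45).

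Tgfb3 had its highest levels in LECs and trophocytes. In the colon these were 50.7 CPM (38.1 to 66.1) and 49.8 CPM (44.5 to 55.6), followed by CD81- fibroblasts at 32.1, SMCs at 15.5, BECs at 11.1 and SEMFs at 8.20 CPM. In the small intestine LECs had 94.8 CPM (89.1 to 100.6), trophocytes 76.7, CD81- fibroblasts 38.8, SMCs 36.7, SEMFs 32.5 and BECs 4.11 CPM. LECs and trophocytes were separated there but not in the colon, and in the small intestine SMCs were not separable from their neighbours on either side, CD81- fibroblasts and SEMFs. The widest Tgfb3 difference between the libraries was in SEMFs, with a log2 ratio of -1.99 (-2.42 to -1.57) and a UMI in 5.25% of colon against 17.0% of small intestinal cells. In BECs the level was near what LEC or fibroblast RNA carried into these droplets would give: 1.55 times the fibroblast carry-over in the colon, on 3 UMIs, and 0.72 times the LEC carry-over in the small intestine. Without the cells richest in other lineages' markers it was 4.85 CPM in colon BECs, and no Tgfb3 UMI was left in small intestinal BECs.

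**Figure D1:**
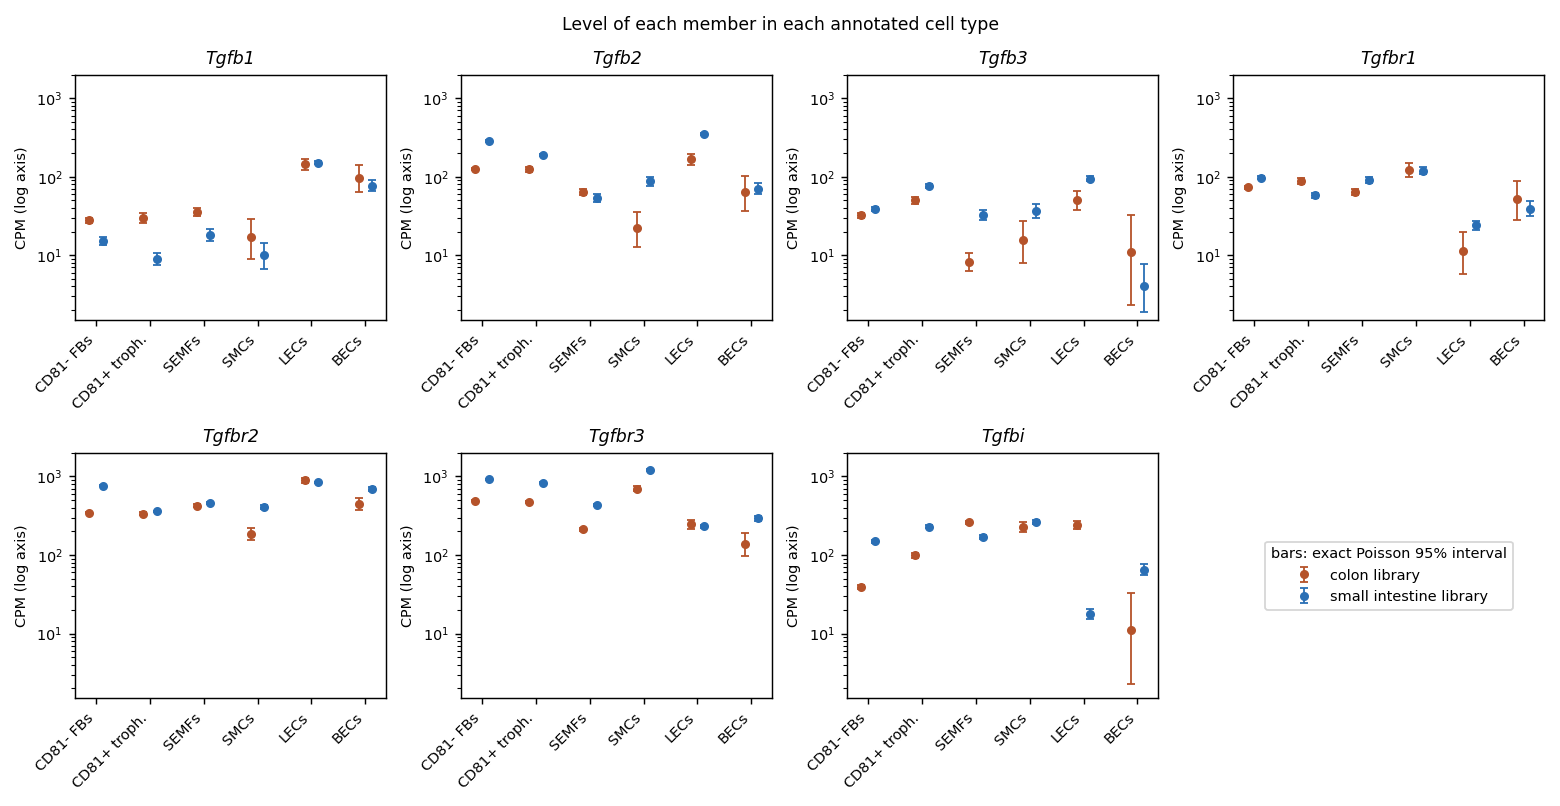
Level of each gene in CPM (log axis) in the 6 cell types, with colon in brown and small intestine in blue; points are sums over all cells of a type in 1 library and bars are exact Poisson 95% intervals. Tgfb1 is highest in LECs and BECs, Tgfbr1 is lowest in LECs where Tgfbr2 is highest, and Tgfbi in LECs lies at 241.2 CPM for colon and 17.9 CPM for small intestine.

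The make-up of the ligand UMIs differed between endothelium and fibroblasts and, within fibroblasts, between the libraries. UMIs were not scaled by transcript length, and the capture of each gene's 3' end was not measured, so these shares are compared between types and libraries rather than between genes. In BECs the interval of the Tgfb1 share overlapped between the libraries, and in LECs it did not. Tgfb1 gave 56.5% of the ligand UMIs of colon BECs (41.1 to 71.1) and 50.8% of small intestinal BECs (45.2 to 56.2), and in LECs it gave 39.8% (34.9 to 44.9) and 25.2% (24.2 to 26.3). In the pooled fibroblast types it gave 17.1% in the colon (16.2 to 18.0) and 4.81% in the small intestine (4.43 to 5.21). The fibroblast share of Tgfb2 was 65.4% in the colon and 76.7% in the small intestine. That of Tgfb3 was 17.5% and 18.5%, in pools that held the fibroblast types in unlike proportions. In CD81- fibroblasts the Tgfb3 share was 17.3% in the colon (16.2 to 18.4) and 11.5% in the small intestine (10.7 to 12.3). In trophocytes it was 24.4% (22.1 to 26.9) and 27.9% (26.5 to 29.3). Among the fibroblast types SEMFs had the widest difference in the Tgfb3 share. Tgfb3 gave 7.64% of their ligand UMIs in the colon (5.90 to 9.71) and 31.1% in the small intestine (27.7 to 34.8), and Tgfb1 gave 33.2% and 17.5%. The summed ligand level of SEMFs was nonetheless close, at 107.3 and 104.4 CPM. In LECs it was 360.4 CPM for colon and 596.0 CPM for small intestine, the highest of the 6 types in both libraries.

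**Figure D2:**
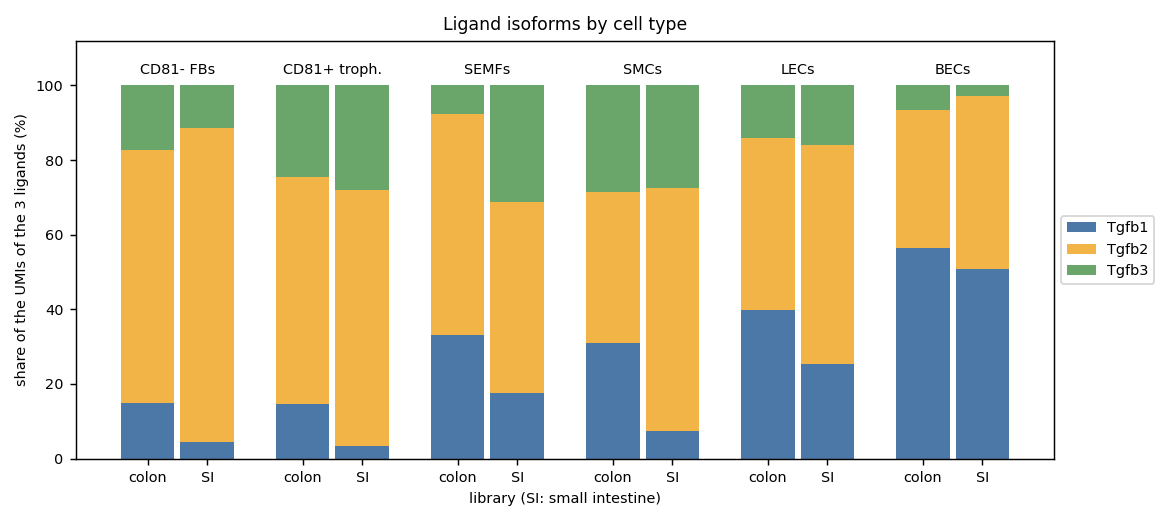
Share of Tgfb1, Tgfb2 and Tgfb3 among the UMIs of the 3 ligands (percent) in each cell type, with the colon and small intestine (SI) libraries side by side. Tgfb1 has its largest shares in BECs. In colon and small intestine its share is 15.0% and 4.47% in CD81- fibroblasts, 14.6% and 3.27% in trophocytes and 33.2% and 17.5% in SEMFs.

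The receptors followed a different order. Tgfbr2, the ligand-binding type II receptor, was highest in LECs, at 890.8 CPM for colon (835.0 to 949.3) and 844.6 CPM for small intestine (827.7 to 861.8). Its log2 ratio there was 0.08 (-0.02 to 0.17), and a UMI was seen in 99.1% of colon and 92.2% of small intestinal LECs. In the colon BECs (448.7 CPM) and SEMFs (426.5) came next and were not separable, then CD81- fibroblasts (345.5) and trophocytes (335.9), again not separable, and SMCs (186.5). In the small intestine CD81- fibroblasts were second at 758.0 CPM, before BECs (692.9), SEMFs (459.5), SMCs (404.8) and trophocytes (358.4). The move of the CD81- fibroblasts was the main change in this order, with a log2 ratio of -1.13 (-1.17 to -1.10) against -0.09 in trophocytes and -0.11 in SEMFs. In SMCs it was -1.12 (-1.38 to -0.87).

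Tgfbr1, the signalling type I receptor, was low where Tgfbr2 was highest, in LECs. SMCs were highest, at 121.7 CPM for colon (98.4 to 149.0) and 119.7 CPM for small intestine (107.3 to 133.2). LECs were lowest, at 11.3 CPM (5.82 to 19.7, 12 UMIs) and 24.0 CPM (21.2 to 27.0). The colon LEC value was 1.53 times the fibroblast carry-over, whose level at the median share was 7.35 CPM, and the small intestinal value 11.2 times its own. The fibroblast types lay between 58.0 CPM in small intestinal trophocytes and 97.4 CPM in small intestinal CD81- fibroblasts. Trophocytes had the higher level in the colon (87.9 CPM, log2 ratio 0.60, 0.44 to 0.75), while CD81- fibroblasts (-0.40) and SEMFs (-0.50) had the higher level in the small intestine. Over the 12 pairs of type and library the Pearson r of log2(CPM + 1) between Tgfbr1 and Tgfbr2 was -0.71, and between Tgfbr1 and Tgfb1 it was -0.83. These points share libraries, and the values are descriptive.

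Few LECs carried UMIs of both signalling receptors. With all UMIs, 5.07% of colon LECs (2.56 to 8.89) and 8.29% of small intestinal LECs (7.23 to 9.44) had both Tgfbr1 and Tgfbr2, and 94.0% and 83.9% had Tgfbr2 without Tgfbr1. In pooled fibroblasts both were seen in 28.3% and 34.7% of cells. After thinning to 2000 UMIs per cell, both were seen in 0.92% and 3.66% of LECs and in 6.07% and 9.11% of fibroblasts. The joint share of CD81- fibroblasts was 5.81% in the colon (5.07 to 6.62) and 12.2% in the small intestine (11.0 to 13.4), whereas for trophocytes it was 7.39% (5.72 to 9.35) and 4.96% (4.03 to 6.04). A cell without a Tgfbr1 UMI may still express the gene at this depth.

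**Figure D3:**
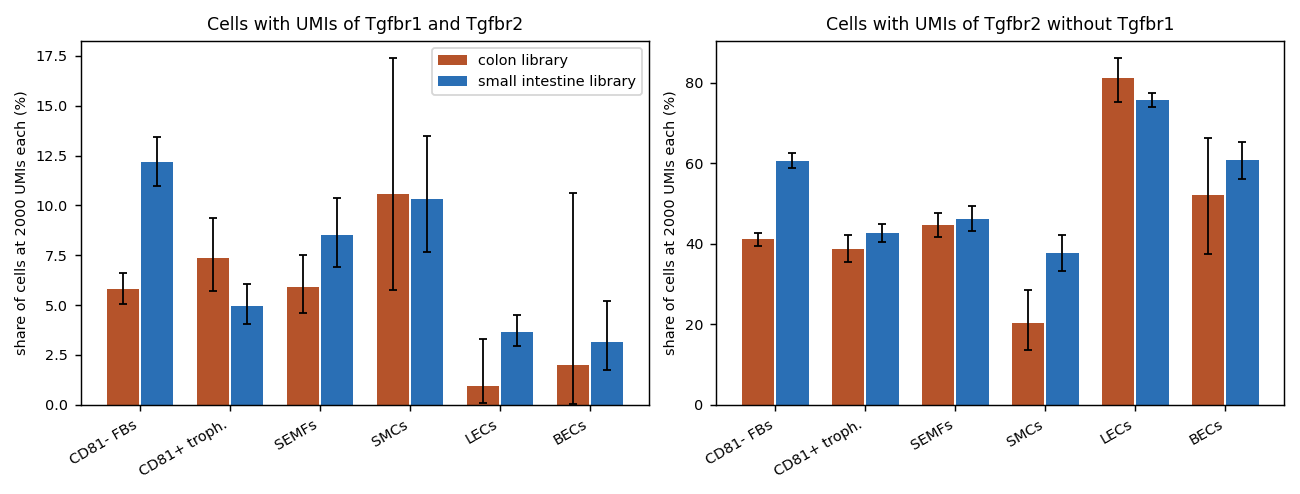
Share of cells (percent, each cell thinned to 2000 UMIs) with UMIs of both Tgfbr1 and Tgfbr2 (left) and of Tgfbr2 without Tgfbr1 (right) by cell type, with colon in brown and small intestine in blue; bars carry exact Clopper-Pearson 95% intervals. LECs have the largest shares on the right (81.1% and 75.7%), and on the left 0.92% and 3.66%.

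Tgfbr3, the co-receptor betaglycan, was highest in SMCs, followed by CD81- fibroblasts and trophocytes. Its level in SMCs was 701.8 CPM for the colon library (644.0 to 763.5) and 1201 CPM for the small intestine (1160 to 1242). CD81- fibroblasts followed with 489.0 and 922.5 CPM and trophocytes with 471.6 and 835.5 CPM, and only in the small intestine were these neighbours separated. SEMFs, at 211.5 CPM in colon and 436.2 CPM in small intestine, had less than the other fibroblast types in both. LECs had 245.9 and 231.7 CPM (log2 ratio 0.09, -0.10 to 0.27) and BECs 137.2 and 292.4 CPM. The colon BEC value was 1.35 times the fibroblast carry-over. In all 5 types other than LECs the level was lower in the colon, with log2 ratios from -1.09 in BECs and -1.04 in SEMFs to -0.77 in SMCs.

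Tgfbi encodes a secreted matrix protein that binds collagens and integrins, and its order of cell types differed between the libraries. In the colon SEMFs had 261.0 CPM (249.5 to 272.9), LECs 241.2 CPM (212.6 to 272.6) and SMCs 229.2 CPM (196.7 to 265.6), with no neighbours separated. Trophocytes followed at 98.9 CPM, CD81- fibroblasts at 39.3 and BECs at 11.1 CPM on 3 UMIs. In the small intestine SMCs had 263.3 CPM (244.7 to 283.0), trophocytes 230.0, SEMFs 169.7, CD81- fibroblasts 149.3, BECs 65.2 and LECs 17.9 CPM (15.5 to 20.6), all neighbours separated. LECs were thus second in the colon and last in the small intestine. The log2 ratio in LECs was 3.75 (3.48 to 4.02), a 13.5-fold difference, higher than that of 99.9% of the 9169 genes tested in this type. In CD81- fibroblasts it was -1.93 (-2.03 to -1.82), in trophocytes -1.22 (-1.34 to -1.09), in BECs -2.55 (-4.85 to -0.98), in SEMFs 0.62 (0.51 to 0.73) and in SMCs -0.20 (-0.45 to 0.04). Of the 7 genes, Tgfbi was the one whose highest cell type was not the same in both libraries.

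The LEC difference was spread over many cells. A Tgfbi UMI was seen in 129 of 217 colon LECs (59.4%, 52.6 to 66.0) and in 150 of 2498 small intestinal LECs (6.0%, 5.11 to 7.01), or in 37.3% and 3.02% after thinning. For comparison, the fibroblast gene Lum had a UMI in 15.7% of colon LECs (median 4545 UMIs per cell) and 6.61% of small intestinal LECs (median 4118). Lum is the more abundant gene in fibroblasts, at 1653 CPM in the small intestine against 181.5 CPM for Tgfbi, so its share is no like-for-like background for Tgfbi. In colon LECs 53 cells had 1 UMI, 51 had 2 and 25 had at least 3, and the highest cell had 10. In small intestinal LECs the numbers were 113, 29 and 8, and the highest cell had 6. The colon LECs with Y-linked and no Xist UMIs (53 cells) had 261.5 CPM (201.8 to 333.3) and those with Xist and no Y-linked UMIs (98 cells) had 205.6 CPM (168.0 to 249.2), so both subsets stood above the small intestine.

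LECs with and without a Tgfbi UMI were compared for fibroblast and lymphatic genes. In the small intestine the LECs with a Tgfbi UMI had 3900 CPM of Dcn, the fibroblast gene decorin, against 156.5 CPM in those without, at a median of 4271 and 4106 UMIs per cell. Col3a1, a collagen III chain, was at 1103 and 49.4 CPM. In the colon Dcn was at 761.5 and 981.9 CPM and Col3a1 at 464.9 and 396.2 CPM, so the 2 genes differed in opposite directions there. The part of fibroblast RNA in the Tgfbi levels was not tested by this split. Lymphatic genes were similar with and without Tgfbi in the colon. There the lymphatic marker Mmrn1 was at 5182 and 4980 CPM and the lymphatic transcription factor Prox1 at 484.8 and 454.5 CPM. In the small intestine they were lower in the LECs with a Tgfbi UMI. Mmrn1 was at 3892 CPM with and 4843 CPM without, and Prox1 at 548.2 and 823.0 CPM. Lyve1 and Ccl21a were also lower with Tgfbi there. The source of this difference was not tested. When only LECs with no UMI of Dcn, Lum, Col1a1 or Col3a1 were kept, a subset chosen after the values were seen, Tgfbi was at 249.9 CPM in 82 colon cells (201.2 to 306.8) and 13.7 CPM in 1309 small intestinal cells (10.7 to 17.1). The Tgfbi level of all colon LECs was 26.5 times the fibroblast carry-over, that of small intestinal LECs 3.78 times and that of colon BECs 0.51 times. Macrophages are also known to express Tgfbi. The 9 macrophage markers summed to 138.9 CPM in colon LECs and to 101.9 CPM over the 8 listed for small intestinal LECs, and the pan-leukocyte gene Ptprc had no UMI in the LECs with Tgfbi of either library, which allows up to 4.59 and 3.8 CPM. Of the 9, Csf1r and Ptprc had no UMI in all colon LECs and Csf1r none in small intestinal LECs, and Cd74 made up 124.8 and 99.1 CPM of the sums.

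**Figure D4:**
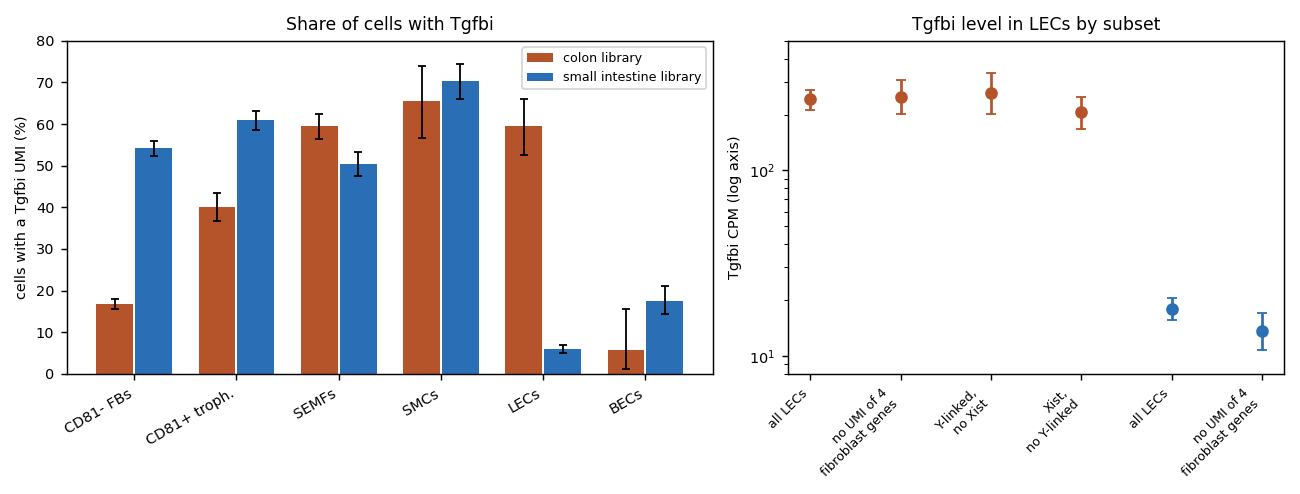
Left, share of cells with a Tgfbi UMI (percent) by cell type with exact Clopper-Pearson 95% intervals; right, Tgfbi level in LECs (CPM, log axis, exact Poisson 95% intervals) for all cells, cells with no UMI of 4 fibroblast genes and the colon subsets split by Xist and Y-linked UMIs, with colon in brown and small intestine in blue. The colon LEC subsets lie between 205.6 and 261.5 CPM and the small intestinal values at 17.9 and 13.7 CPM.

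Counted over the 6 types, 40 of the 42 pairs of gene and type had at least 100 UMIs over both libraries, a filter that in SMCs, LECs and BECs was passed mainly through the larger small intestine library. Of these, 2 were past 2-fold higher in the colon (Tgfb1 in trophocytes and Tgfbi in LECs), 13 were past 2-fold lower and 25 were within 2-fold. In CD81- fibroblasts 3 of 7 members were past 2-fold lower (Tgfb2, Tgfbr2 and Tgfbi) and 0 higher, against 10.4% lower and 6.46% higher of all genes tested. In trophocytes 1 was higher and 1 lower (background 4.23% and 8.24%), in SEMFs 0 and 2 (5.36% and 15.1%), and in SMCs 0 and 3 of the 6 tested (3.37% and 17.3%). In LECs 1 was higher and 2 lower (3.45% and 15.4%, or 18.8% in either direction), and in BECs 0 and 2 of 6 (3.1% and 19.6%, or 22.7% in either direction). In the pooled fibroblasts 1 member, Tgfb1, was higher and 0 lower (6.88% and 9.47%). With 6 or 7 members per type each such count is small, and in SMCs, LECs and BECs lower levels were common among all genes.

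The median log2 ratio of the members was -0.92 in CD81- fibroblasts against -0.22 over all genes tested, -0.61 against -0.11 in trophocytes, -0.95 against -0.27 in SMCs and -0.40 against -0.30 in BECs. It was -0.11 against -0.33 in SEMFs and -0.07 against -0.27 in LECs, above the median gene. Relative to the median gene of each type, 4 pairs were past 2-fold higher and 5 lower. On that scale Tgfb1 was above the median gene in all 6 types, LECs included, where its ratio before centring was -0.07, while Tgfb3 and Tgfbr3 were below it in 5 of 6. The Tgfb1 interval reached below the median gene in LECs, BECs and SMCs, and SMCs held only 13 colon and 28 small intestinal Tgfb1 UMIs. That of Tgfb3 in CD81- fibroblasts reached above it. In SEMFs the summed level of 8 dissociation and stress genes was 7592 CPM for colon and 2201 CPM for small intestine, and in LECs 6144 and 11852 CPM; the part of these in the members' differences was not tested.

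**Figure D5:**
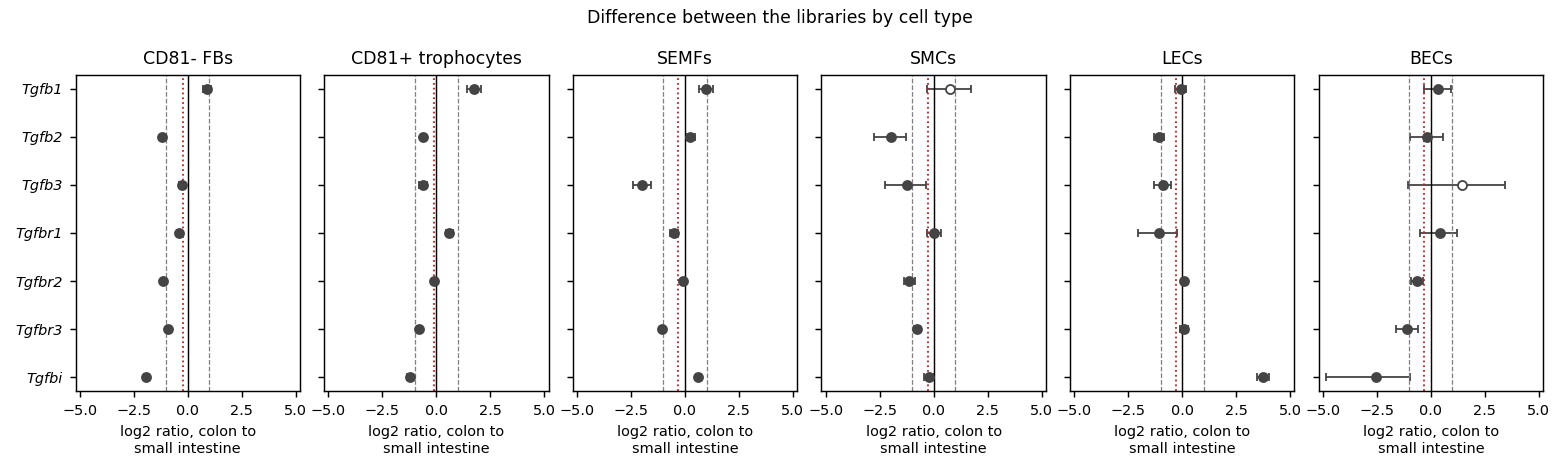
Log2 ratio of colon to small intestine for each gene in the 6 cell types with exact conditional binomial 95% intervals; dashed lines mark 2-fold, the dotted red line marks the median gene of the type, and open points had under 100 UMIs. Tgfbi lies at 3.75 in LECs and at -1.93 in CD81- fibroblasts, and Tgfb1 lies above the dotted line in every panel, in LECs at -0.07. The Tgfb1 intervals in SMCs, LECs and BECs cross that line.

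Within the colon library the subsets split by Xist and Y-linked UMIs also differed in the members. In pooled fibroblasts the log2 ratio of the Y-linked to the Xist subset was 0.41 for Tgfb1 (0.22 to 0.60), 0.28 for Tgfbr1 and 0.24 for Tgfbr3, and it was -0.47 for Tgfbr2 (-0.52 to -0.41), -0.40 for Tgfb2 and -0.35 for Tgfbi. The subsets were not labelled by the authors, and the number of animals in each is not known. These differences were smaller than 2-fold but large enough to move some pairs across the 2-fold line. Against the small intestine, Tgfbr2 in CD81- fibroblasts was at -1.37 with the Y-linked subset and -0.91 with the Xist subset, and Tgfbr1 in LECs at -1.58 on 2 UMIs and -0.60 on 8.

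Of a list of 43 other pathway genes, all were listed for both libraries, and 219 of 258 pairs of gene and type had enough UMIs. Of these, 27 were past 2-fold higher and 29 lower in the colon, and the median log2 ratio was -0.20. Over all genes tested, the share called ranged by type from 3.1% to 6.46% higher and from 8.24% to 19.6% lower, and these counts are to be read against those shares. Of 37 pairs of genes that store latent ligand, 11 were lower and 1 higher, and 5 of the 11 were Ltbp1. Ltbp1, a latent TGF-beta binding protein, had 63.2 against 405.3 CPM in SEMFs (log2 ratio -2.68, -2.83 to -2.54), 275.7 against 749.5 CPM in CD81- fibroblasts (-1.44) and values from -1.29 to -1.26 in trophocytes, LECs and BECs. In SMCs it stood at 510.2 and 509.6 CPM. Ltbp2 (-2.51) and Fbn1 (-1.44), which encodes the microfibril protein fibrillin, were also lower in SEMFs, and Lrrc32, which tethers latent ligand to the cell surface, in SMCs (-2.06). Of 37 pairs of activating genes 4 were lower and 0 higher, and Itgav, an integrin chain that binds latent ligand, was lower in LECs at 107.0 against 500 CPM (-2.22, -2.50 to -1.96).

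Among signal transducers and their brakes 4 of 71 pairs were higher and 7 lower. Over all genes tested the shares by type were 3.1% to 6.46% higher and 8.24% to 19.6% lower, so these counts do not set the group apart. Smad7, the inhibitory Smad, was higher in colon SEMFs (87.0 against 16.7 CPM, log2 ratio 2.38, 2.09 to 2.69) and SMCs (1.21). Smurf1, a ubiquitin ligase for receptors and Smads, was lower in LECs (-1.64) and SMCs (-1.42), and Tgif1, a transcriptional repressor of Smads, in BECs (-1.11). Of the further receptors, 6 of 20 pairs were higher and 2 lower. Cd109, a co-receptor that restrains signalling, was at 31.1 CPM in colon CD81- fibroblasts on 768 UMIs and at 0.10 CPM in the small intestine on 2 UMIs, and in LECs its log2 ratio was 2.15.

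Genes known to respond to TGF-beta did not move in 1 direction. Of 54 pairs 16 were higher and 5 lower in the colon, and the median log2 ratio was 0.48. The shares over all genes tested were 3.1% to 6.46% higher and 8.24% to 19.6% lower by type. Postn, the matrix protein periostin, was higher in 5 types, with 1666 against 123.2 CPM in CD81- fibroblasts (log2 ratio 3.76, 3.70 to 3.82), 779.4 against 31.6 CPM in SEMFs (4.63) and 179.3 against 55.3 CPM in LECs (1.70). Ccn2, a matricellular growth factor, was higher in CD81- fibroblasts (2.57) and trophocytes (2.15). The cell cycle inhibitor Cdkn1a was higher in trophocytes (1.42). The contractile genes Acta2 (-2.35) and Tagln (-3.15) were lower in colon CD81- fibroblasts, and Acta2 was higher in trophocytes (1.17). Acta2 and Tagln are also SMC markers, and the summed pericyte markers were higher in small intestinal CD81- fibroblasts, as given above. The part of SMC or pericyte RNA in the CD81- fibroblast values was not tested. Col1a1, the collagen I chain, was lower in trophocytes (-1.80) and SMCs (-1.35) and higher in BECs (3.09). It is also 1 of the 5 fibroblast markers whose sum was higher in small intestinal than in colon SMCs. The SMC value is thus part of that sum. Postn in LECs stood beside the fibroblast carry-over of 9.91% in the colon and 2.61% in the small intestine. In BECs Postn (5.28) and Fn1 (1.69) were read beside a fibroblast carry-over of 23.5% in the colon against 1.32% in the small intestine. Col1a1 is 1 of the 4 genes that set this carry-over, so its BEC value cannot be read beside it. That value is nonetheless among the 16 pairs counted as higher. The part of carried-over RNA in these values was not tested.

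Genes whose levels ran most like those of a member over the 12 pairs of type and library were ranked by the Pearson r of log2(CPM + 1) among 9533 genes. For Tgfb1 these were Lfng, Yy1 and Bcl6b (r of 0.96 for each), for Tgfb2 Ap3s1, Peak1 and Add3 (0.91 to 0.95) and for Tgfb3 Srgap3, Raph1 and Tnxb (0.89 to 0.92). For the receptors they were 1700021F05Rik, Msrb1 and Glis2 (Tgfbr1, 0.92 to 0.94), Elk4, Ly96 and Scamp1 (Tgfbr2, 0.90 to 0.94) and Zbtb8a, Carmil1 and Ppp2r3a (Tgfbr3, 0.94 for each). Tgfbi had the lowest top value, 0.88 for Camkk2, before Morf4l1 (0.86) and Slc8a1 (0.84). Members were left out of this ranking. The closest pair of members was Tgfb2 and Tgfb3 (0.68). These are the highest of many r values over few points that share 2 libraries, and they are given as a description.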

How the data were processed

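Sorted stromal cells of mouse colon and small intestine were profiled with the 10x Genomics 3' version 3.1 kit, about 16000 cells loaded per library, per the labels' protocols. The submitters' processing notes name Cell Ranger 7.1.0, Seurat 4 and mm10; filters on cells and genes are not given in the sources used here. The authors deposited raw UMI counts per gene and cell, which give all main values, and values on a natural log scale, ln(1 + 10000 x UMIs / UMIs of the cell) as tested on the raw table. Cell type labels are the authors'. UMIs were summed per type and library (40684070 and 58134526 UMIs in all) with Python 3.11.15, numpy 2.4.6, scipy 1.17.1 and pandas 2.3.3. Levels carry exact Poisson, shares Clopper-Pearson and ratios exact conditional binomial 95% intervals, tested on simulated counts. Called means past 2-fold with at least 100 UMIs over both libraries; a count of 0 allows 3 counts. No p-value was computed with 1 library per tissue. No doublet caller was run; alternatives left out the 6% of cells with most UMIs and the 10% richest in other lineages' markers. All members were named; of the pathway list, up to 3 genes per type and direction, ranked after adding 10 CPM, and the 3 genes most like each member (at least 20 CPM in 1 pair). The values of 1 gene of the list are not reported here. Members and lists were chosen with earlier results of these data known.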

Additional observations from a re-analysis of the deposited data

Results flagged for a closer look

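Tgfbi differed between the libraries in opposite directions in different cell types. Its log2 ratio of colon to small intestine in LECs exceeded that in CD81- fibroblasts by 5.68, that in CD81+ trophocytes by 4.97 and that in BECs by 6.30, the last resting on 3 colon UMIs. With 1 library per tissue these differences between cell types were not tested.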

How the results depend on the processing

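Settings were changed singly. The number of member and type pairs past 2-fold higher in the colon (2) was 4 relative to the median gene and with the Y-linked colon subset and 1 with the deposited natural log values, a scale that compresses low genes. The number past 2-fold lower (13) was 5 relative to the median gene and 0 with the natural log values. For the pathway list the number higher (27) was 4 with the natural log values and 43 with no filter on low counts, and the number lower (29) was 17 relative to the median gene and 7 with the natural log values. Of the 15 called pairs, 7 stayed past 2-fold under every CPM alternative that gave a ratio (Tgfb1 in trophocytes, Tgfb2 in SMCs, Tgfb3 in SEMFs, and Tgfbi in CD81- fibroblasts, trophocytes, LECs and BECs), 8 fell within 2-fold under some, and 0 changed sign. Of the 27 pairs not called, 9 changed sign under some. The Xist subset and the endothelial cells without fibroblast UMIs were added after seeing the data. With the Xist subset of the colon, called pairs that came within 2-fold included Tgfbr2 in CD81- fibroblasts (-0.91) and Tgfbr1 in LECs (-0.60), and with the Y-linked subset Tgfb3 in SMCs (-0.66), Tgfb2 in LECs (-0.99) and Tgfbr3 in SEMFs (-0.96). The log2 ratio of Tgfbi in LECs ranged from 3.52 to 4.09 over the CPM alternatives and was 4.19 in LECs without fibroblast UMIs. The highest type was the same in both libraries for 5 to 6 of 7 members. Tgfbi in BECs and Tgfb3 in BECs gave no ratio where either library had 0 UMIs. No paired analysis was possible because each tissue had 1 library. Depth limited the colon BECs (53 cells) and SMCs (125 cells) most.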

Other observations

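The colon labels with too few cells for comparison held few UMIs of the members. The 4 proliferating cells of the colon had 10 Tgfbi UMIs (326.2 CPM), and the 24 proliferating cells of the small intestine had 8 (36.4 CPM). In the proliferating cells of the small intestine Tgfbr2 was at 428.1 CPM and Tgfbr3 at 227.7 CPM. The 3 pericyte labels of the colon together held 8 cells, with 6 Tgfbr2 UMIs (173.0 CPM) and 3 Tgfbr3 UMIs (86.5 CPM). Of the colon endothelial labels, capillary cells (45 cells) had 24 Tgfb1 UMIs and 109 Tgfbr2 UMIs, and venous cells (4 cells) had 10 Tgfbr3 UMIs (416.6 CPM) against 26 in capillary cells (114.5 CPM).

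In small intestinal BECs, 92 of 524 cells had a Tgfbi UMI, with a Dcn level of 256.6 CPM against 169.3 CPM in those without. Their median depth was 5247 UMIs per cell against 3368 UMIs. Among the 283 small intestinal BECs with no UMI of Dcn, Lum, Col1a1 or Col3a1, Tgfbi was at 56.5 CPM (43.0 to 72.9).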
